A study of Rattus norvegicus with 12 samples.

Results

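Plasmacytoid dendritic cells (pDCs) of the healthy rat liver were taken as the cells with at least 1 UMI (1 counted transcript molecule) of Siglech and at least 3 UMIs summed over Siglech, Irf8, Ptcra and Cyb561a3. The rule returned 123 of the 25659 cells kept in 6 scRNA-seq libraries. Total liver homogenate (TLH) libraries gave 62 of them, 9 in DA-1, 24 in DA-2, 16 in LEW-1 and 13 in LEW-2. The immune-enriched libraries gave 61, 43 from the DA liver and 18 from the LEW liver.

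The atlas was made from livers of male rats recorded as healthy, with no genetic change or treatment named for any group. Dark Agouti (DA) and Lewis (LEW) each had 2 TLH libraries, made with version 2 of the 10x Genomics 3′ chemistry, and 1 immune-enriched library, made with version 3. The immune-enriched livers went through additional washing and red blood cell depletion, so preparation and chemistry cannot be told apart. The same strains had 2 libraries of nuclei each, and 2 Wistar liver sections were profiled on Visium slides. The labels give the ages as 8 to 10 weeks, whereas the names of the deposited matrices give 10 weeks for the DA and 13 weeks for the LEW TLH libraries and 9 weeks for both immune-enriched ones, while the study's methods describe older, age-matched rats. The sources thus disagree, and whether age differed between the strains was not settled here.

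pDCs are rare bone-marrow-derived cells with a rounded, plasma-cell-like shape. They carry the Toll-like receptors TLR7 and TLR9 in endosomes, where viral RNA and DNA are sensed, and are known for rapid secretion of large amounts of type I interferon. Their identity depends on the E protein TCF4 (E2-2) and on IRF8, SPIB, RUNX2 and BCL11A, and they share several transcripts with lymphocytes, among them Ptcra. In the liver, pDCs circulate through the sinusoids beside conventional dendritic cells (cDCs), Kupffer cells, NK cells, T cells and B cells.

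Of the gate genes, Siglech encodes a sialic-acid-binding lectin of pDCs that signals through the adaptor DAP12 (Tyrobp), and Ptcra encodes the invariant pre-T-cell receptor α chain. Their promoters, the 250 bases before the RefSeq start on GRCr8, are shown because these genes were hardly counted in any other cell class. The Siglech stretch lies at chr1:115729241-115729490 on the plus strand, and capitals mark its match to the ETS core GAGGAA, read on the minus strand, which begins 46 bases before the start. The Ptcra stretch lies at chr9:21716272-21716521 on the plus strand and held neither motif.
Siglech: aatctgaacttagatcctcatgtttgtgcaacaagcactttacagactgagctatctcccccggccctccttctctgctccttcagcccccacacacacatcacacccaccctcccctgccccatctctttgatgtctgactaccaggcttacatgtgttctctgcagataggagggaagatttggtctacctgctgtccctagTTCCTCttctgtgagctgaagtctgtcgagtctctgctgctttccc
Ptcra: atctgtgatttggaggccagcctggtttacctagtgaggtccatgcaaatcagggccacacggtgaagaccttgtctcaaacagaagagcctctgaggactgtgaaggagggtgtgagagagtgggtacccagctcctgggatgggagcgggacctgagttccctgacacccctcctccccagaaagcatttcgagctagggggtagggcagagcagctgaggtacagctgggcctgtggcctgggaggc
The ETS core was found on either strand in 23.3% of the 33469 rat promoters of that length and in 1 of the 4 gate genes. The E-box CAGGTG, which shares no match with the ETS core, was found on either strand in 15.9% of promoters and in 0 of 4 gate genes. A match is a description of the letters only. The deposited counts rest on Rnor_6.0, and no coordinates were moved between the builds.

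The gate genes chose the members, so their values are a description. Siglech reached 572, 569, 706 and 853 CPM (UMIs per 1000000 UMIs of the summed class) in members of the DA-1, DA-2, LEW-1 and LEW-2 TLH libraries, and 871 and 1104 CPM in the DA and LEW immune-enriched ones. Over all members 531 Siglech UMIs were counted, against 1 UMI in the 1770 other cells with a Ptprc UMI, the leukocyte phosphatase CD45. Irf8, the interferon regulatory factor shared by pDCs and type 1 cDCs, reached 1144, 594, 597 and 587 CPM in the TLH members and 2391 and 2272 CPM in the immune-enriched members. It was thus higher in both immune-enriched libraries than in any TLH library. Ptcra reached 143, 37.9, 72.4 and 133 CPM in the TLH members and 340 and 191 CPM in the immune-enriched members. Cyb561a3, an endolysosomal cytochrome b561 family member, reached 334, 620, 868 and 960 CPM, and then 1788 and 2041 CPM. Outside the members, Irf8 was also counted in cells gated as cDCs, at 215 to 506 CPM, and Cyb561a3 in cells gated as B cells, at 0 to 315 CPM.

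**Figure D1:**
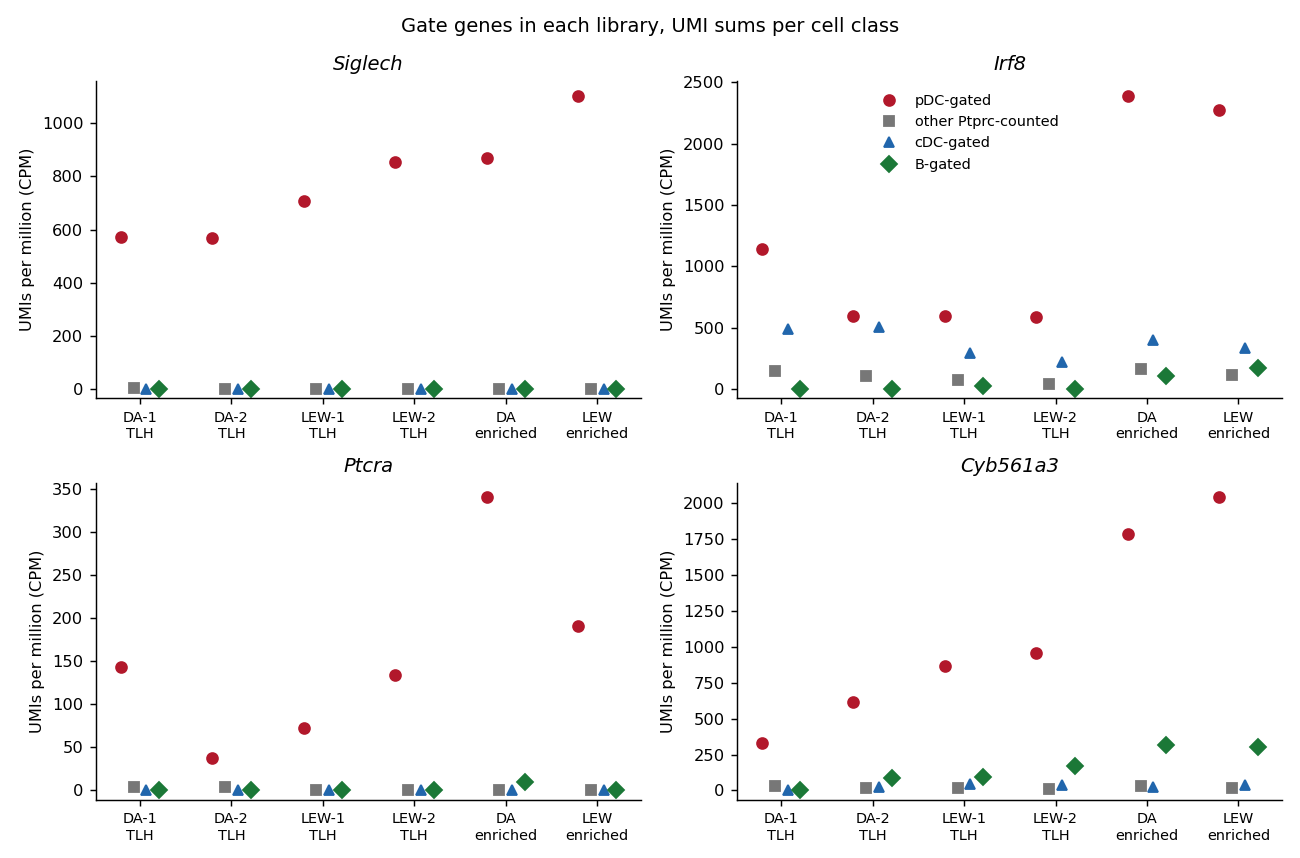
Level of the 4 gate genes (CPM) in pDC-gated, other Ptprc-counted, cDC-gated and B-gated cells, 1 point for each library and class and 1 panel for each gene. Siglech and Ptcra stay near 0 outside the members, whereas Irf8 is also counted in cDC-gated cells (215 to 506 CPM) and Cyb561a3 in B-gated cells (0 to 315 CPM).

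Members of the immune-enriched libraries were counted more deeply. Their median was 7379 UMIs and 2216 genes per cell, against 3050.5 UMIs and 1170.5 genes in the TLH libraries, and the sum over the gate genes had a median of 40 UMIs against 6.5. All 4 gate genes were seen in 44 of 61 immune-enriched members and in 10 of 62 TLH members. Irf8 was counted in 115 of the 123 members, Cyb561a3 in 116, Ptcra in 58 and Ptprc itself in 68. At the edge of the rule, 3 members had exactly 3 gate UMIs, and 7.22 of every 1000 of their UMIs fell on pDC identity genes outside the gate. Another 11 cells, all in TLH libraries, had a Siglech UMI but fewer than 3 gate UMIs, and 4.43 per 1000 of their UMIs fell on those genes. The remaining TLH members had 7.30 per 1000 and the immune-enriched members 15.1 per 1000, whereas other Ptprc-counted cells had 3.46 and 4.89 per 1000.

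Genes outside the gate were compared between the members and the other Ptprc-counted cells on UMIs summed per library and class, in the 5 libraries with at least 10 members (DA-1 TLH, with 9, was left out). The edgeR quasi-likelihood test with library as a block and Benjamini-Hochberg adjustment called 369 of 4651 genes (7.93%) higher and 643 (13.8%) lower in the pDC-gated cells at an adjusted p under 0.05. The median log2 fold change over all genes tested was -0.12. Cells were chosen on 4 of their own transcripts, and the lists below were drawn up with earlier results of these data known, so the counts describe the programme and are not independent evidence of it. With every cell thinned to 1000 UMIs, 57 genes were higher and 167 lower, and with TLH libraries alone 208 and 287.

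**Figure D2:**
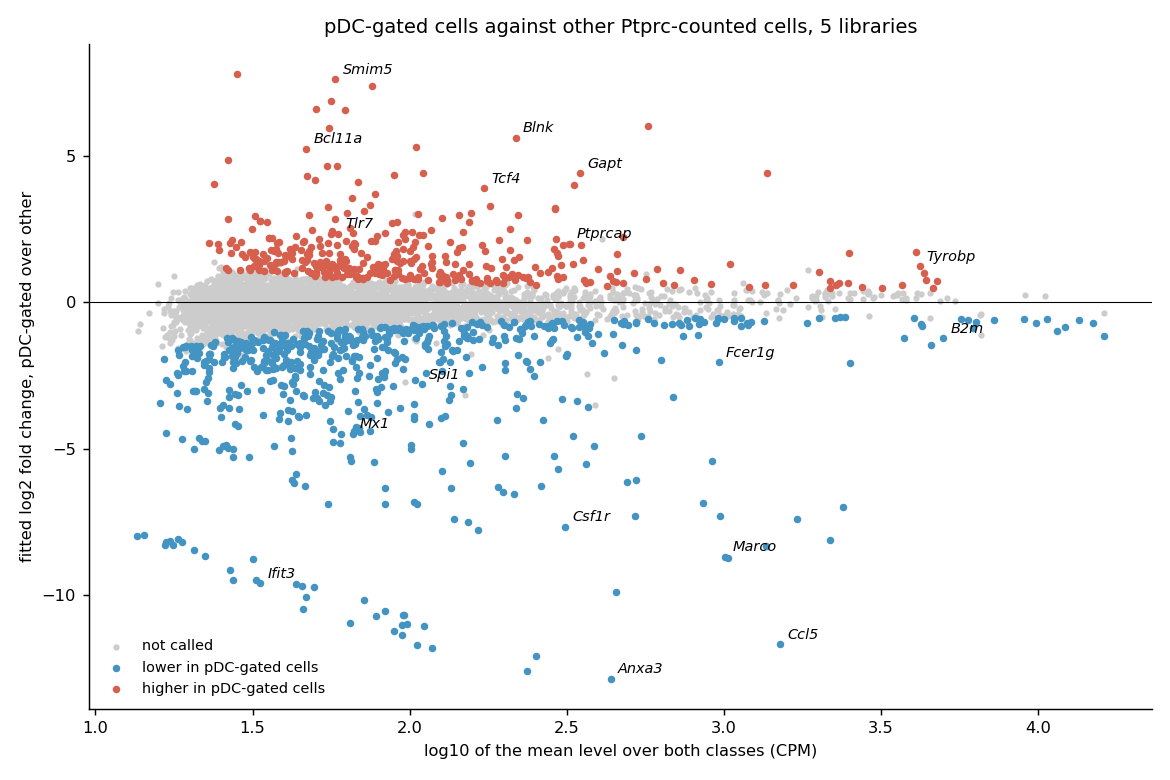
Fitted log2 fold change of pDC-gated over other Ptprc-counted cells (vertical axis) against the log10 of the mean level in CPM (horizontal axis), 1 point per gene, with 369 genes higher (red), 643 lower (blue) and the rest grey. Smim5, Blnk, Tcf4 and Bcl11a are labelled among the higher genes, and the band below -8 holds genes with 0 or few UMIs in the members, whose fitted fold changes are no bounds.

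Transcription factors known from pDCs were among the higher genes. Of 26 annotated genes in a list of pDC identity genes outside the gate, 9 did not pass the filter on low counts. Among these 9, Klk1, Cox6a2 and Ly6d had 0 UMIs in members and in every comparator class. Of the 17 tested, 13 were higher and 1 lower, beside 7.93% and 13.8% of all genes tested, with a median log2 fold change of 1.96. Genes that are nearly absent from the other cells, such as Smim5 and Bcl11a, could pass the filter only through the members, so this count is partly set by the filter and supports nothing by itself. The same holds for the lists of transcription factors and cell functions below, from each of which 3 to 13 annotated genes were filtered out. Tcf4, the E protein on which the lineage depends, reached 177, 452 and 160 CPM in DA-2, LEW-1 and LEW-2 TLH members and 396 and 437 CPM in DA and LEW immune-enriched members. Other Ptprc-counted cells of those libraries held 7.69 to 37.0 CPM, so the ranges lay far apart (log2 fold change 3.90 ± 0.28 SE, adjusted p = 2.42e-16, edgeR). Spib, an ETS factor of pDCs and B cells, reached 114, 109, 107, 261 and 437 CPM in the same order, against 0 to 14.0 CPM (5.30 ± 0.43, adjusted p = 8.11e-09). Runx2, which is known to control the exit of pDCs from bone marrow, reached 75.9 to 294 CPM against 2.80 to 20.7 CPM (4.34 ± 0.35, adjusted p = 1.83e-12). Bcl11a, a zinc finger factor of lymphoid and pDC development, reached 25.3 to 159 CPM against 0 to 4.06 CPM (5.25 ± 0.46, adjusted p = 2.02e-13). Over the 5 fitted libraries none of these 4 factors overlapped between the classes. Among all tested genes, 4.06% did not overlap with members higher and 5.78% with members lower. For genes as rare in the other cells as Bcl11a, the lack of overlap and the p-value were partly set by the filter. The non-overlap therefore supports nothing by itself. The 9 members of DA-1 TLH, outside the fit, were at 0 CPM for Tcf4 and Spib, below the other cells of that library at 8.27 and 12.4 CPM, and at 47.6 CPM for both Runx2 and Bcl11a, above 4.14 and 8.27 CPM.

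Among 11 tested transcription factors of dendritic cells, these 4 were higher, 3 were lower and 4 were not called, and the list's median was -0.15. The shares over all genes tested were 7.93% higher and 13.8% lower. Spi1 (PU.1), which favours myeloid fates, was lower at 12.6 to 39.7 CPM against 125 to 233 CPM (-2.79 ± 0.32, adjusted p = 1.11e-09). Klf4, a factor of monocytes and cDC2s, had 0 UMIs in the members of the 5 libraries and was at least 16.2-fold lower, against a floor of 3 counts over the summed libraries. Irf7, the factor through which Toll-like receptors switch on interferon genes, was counted at 80.0 to 139 CPM in members and 53.2 to 129 CPM in the other cells, and was not called (0.36 ± 0.28, adjusted p = 0.416).

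Outside the transcription factors, the identity list was led by Smim5, which encodes a small membrane protein, at 36.2 to 199 CPM against 0 to 1.12 CPM (7.62 ± 0.50, adjusted p = 1.84e-17), although DA-1 TLH members had 0 CPM and the other cells there 4.14 CPM. Blnk, the adaptor that couples SYK to downstream signalling in B cells, reached 215, 253, 320, 686 and 659 CPM against 4.66 to 12.2 CPM (5.63 ± 0.28, adjusted p = 1.70e-21). Plac8 was higher at 2567 to 5254 CPM against 427 to 1959 CPM (1.68 ± 0.19). Atp1b1, a sodium pump subunit, was the single listed gene that was lower (0 to 36.3 against 96.9 to 127 CPM, -2.58 ± 0.38). Grn, which encodes progranulin, was not called at 373 to 1613 CPM against 882 to 1672 CPM, nor was Upb1 at 0 to 164 CPM against 1.11 to 122 CPM.

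Genes on no list included some of the largest differences. By the naming rule the higher genes were Bricd5, Pygm, Lrp8, Gpm6b, Fxyd7, Slco4a1, Cdca7l, Hpse, Gapt, Rgs12, Kcnk7 and Capn5. Pygm, the muscle form of glycogen phosphorylase, reached 190, 163, 26.7, 172 and 207 CPM against 0 to 1.85 CPM (7.38 ± 0.45, adjusted p = 1.49e-18). Lrp8, a reelin and apolipoprotein E receptor, reached 26.7 to 201 CPM against 0 to 3.37 CPM (6.61 ± 0.48), and Gpm6b, a proteolipid membrane protein, 26.7 to 218 CPM against 0 to 2.45 CPM (6.56 ± 0.43). Gapt, a GRB2-binding adaptor, was the most strongly counted of the 12 with 541 UMIs in members, at 329, 416, 373, 1112 and 1120 CPM against 18.5 to 52.3 CPM (4.41 ± 0.26, adjusted p = 4.65e-19). The rule itself required a change in 1 direction in every library, and genes with so few UMIs in the other cells passed the filter on low counts through the members, so that among genes this rare only those high in members were tested. Bricd5 rested on 1 UMI in the other cells, and its ratio of 522 had a counting interval of 87.3 to 21271.

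The lower genes named by that rule all had 0 UMIs in members of the 5 libraries. Anxa3, a membrane-binding annexin, was at least 230-fold lower, and Lgals3 (galectin-3 of macrophages) at least 119-fold. Gzma and Gzmm, granzymes of cytotoxic lymphocytes, were at least 129-fold and 62.2-fold lower. The others were Adgre1 (F4/80 of macrophages), Ccl4, Fcgr3a, Fcgr1a, Fgl2, Sdc3, Slc11a1 and MGC105649, at least 34.4-fold to 60-fold lower. LOC24906, which the rule left out for its name and which was chosen after its values were seen, stood at 721, 525, 480, 2048 and 1874 CPM in members and 5.60 to 27.7 CPM in the other cells (6.01 ± 0.27, adjusted p = 9.46e-24).

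The genes whose levels followed Siglech most closely were searched over 19 profiles of class by library, as Pearson correlations of log2(CPM + 10) over 4656 genes. Bricd5 came first at 0.995, followed by Kbtbd11 (0.981), Slco4a1 (0.975), Smim5 (0.973), AABR07035465.1 (0.971) and Runx2 (0.960). Ptcra, Gpm6b, Pygm and Fxyd7 completed the 10 with 0.955 to 0.946. The profiles share libraries and depth, and the classes were gated, so these values carry no test.

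The endosomal sensing route was partly raised. Of 16 tested genes from endosomal Toll-like receptors to IRF7, 5 were higher, 2 lower and 9 not called, with a median of 0.49, beside 7.93% higher and 13.8% lower over all genes tested. Tlr7, the receptor for single-stranded RNA, had 0, 36.2 and 0 CPM in DA-2, LEW-1 and LEW-2 TLH members and 264 and 199 CPM in DA and LEW immune-enriched members, against 4.62 to 29.8 CPM in the other cells. The call (2.34 ± 0.38, adjusted p = 2.29e-05) therefore came from 3 of 5 libraries, and DESeq2 did not make it. The difference itself differed between preparations for 89 of 4651 genes (1.91%, interaction term in edgeR), among them Tlr7 (3.17 higher in immune-enriched than TLH libraries on the log2 scale, adjusted p = 0.0368), Bst2 (1.19, adjusted p = 0.0380) and Grn (1.22, adjusted p = 0.0395). Myd88, the adaptor of these receptors, was higher in 4 of 5 libraries (1.55 ± 0.30, adjusted p = 7.36e-05) and Pld4, an endolysosomal nuclease that limits the ligands of TLR7 and TLR9, in 5 of 5 (253 to 635 against 109 to 260 CPM, 1.17 ± 0.22). Unc93b1, the chaperone that carries these receptors to endosomes, was higher as well (0.81 ± 0.22), and Chuk, a kinase of the pathway, was called at 1.08 ± 0.39 but lost that call without LEW-1 TLH or either immune-enriched library. The share of lower genes was thus near that over all genes. Lgmn, a lysosomal protease, had 7 UMIs in members against 7229 in the other cells (-5.71 ± 0.66). Its difference too depended on preparation, being stronger in immune-enriched than in TLH libraries (-4.42 on the log2 scale, adjusted p = 0.0201, interaction term in edgeR). Pld3, an exonuclease, had 2 UMIs against 1341, a ratio of 41.1 with a counting interval of 11.3 to 339. Tlr9 gave 1 UMI in members and 2 in the other cells, so its level was not detectable at this depth.

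The type I interferon genes looked for were not detectable at this depth. Ifnb1, Ifna2, Ifna4, Ifna5 and Ifna11 had 0 UMIs in members and in every comparator class. Beside 7.93% of all tested genes higher and 13.8% lower, 3 of 15 tested interferon response genes were higher, 9 lower and 3 not called (median -0.92). The higher ones were both chains of the type I interferon receptor and the surface protein tetherin. Ifnar2 reached 37.9, 109, 133, 204 and 262 CPM against 7.46 to 58.8 CPM (2.07 ± 0.28, adjusted p = 6.71e-08), and Ifnar1 reached 25.3 to 198 CPM against 19.6 to 91.1 CPM (1.00 ± 0.28, adjusted p = 0.00656), a call that was lost without the DA immune-enriched library. In DA-1 TLH, outside the fit, members had 0 CPM of both chains against 12.4 and 33.1 CPM in the other cells. Bst2 (tetherin) was at 873, 1284, 1280, 2292 and 2121 CPM, above all values of the other cells (449 to 646 CPM, 1.32 ± 0.21). Among the antiviral response genes, Ifit3 had 0 UMIs in members against 948 and was at least 19.4-fold lower, and Mx1 had 4 against 1528 (-4.49 ± 0.50). Ifi27, Stat2 and Usp18 were not called, with fitted differences of -0.55, -0.70 and 0.36. All these calls were against the other Ptprc-counted cells. Against cDC-gated cells 6 genes of the list were tested, with 1 higher, 1 lower and 4 not called (median -0.22). Against B-gated cells 2 were tested and 0 called, so the lower response was not general to all comparators.

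**Figure D3:**
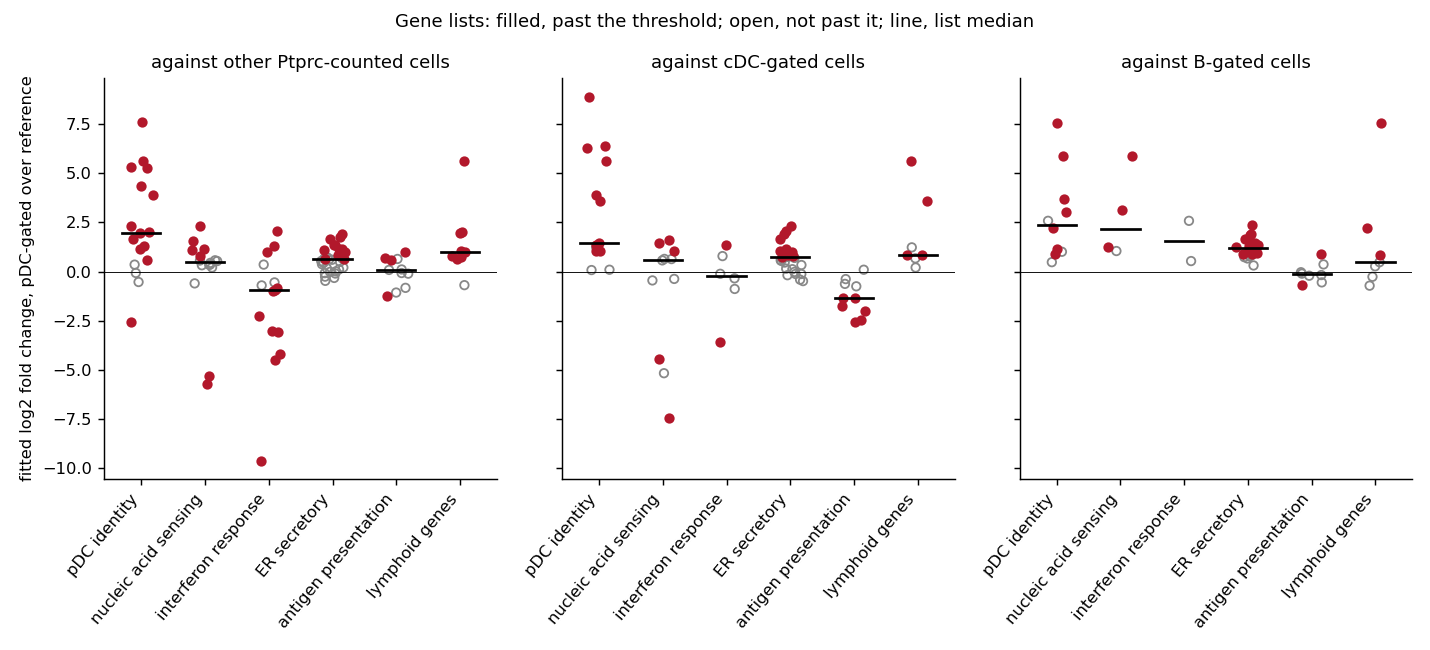
Fitted log2 fold changes of the tested genes of 6 lists in each of 3 comparisons, 1 point per gene, filled where past the threshold and open where not, with a line at the list's median. Antigen presentation genes have a median of 0.09 against other Ptprc-counted cells and -1.33 against cDC-gated cells, whereas the identity list has medians of 1.96, 1.45 and 2.39.

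Signalling partners of Siglec-H went both ways. Of 11 tested genes of ITAM and inhibitory receptor signalling, 5 were higher, 3 lower and 3 not called, with a median of -0.33. The shares over all genes tested were 7.93% higher and 13.8% lower, with a median of -0.12. Tyrobp, which encodes DAP12, the adaptor of Siglec-H, was counted at 3812 CPM in DA-1 members, 3920 CPM in DA-2, 4866 CPM in LEW-1, 5734 CPM in LEW-2, 8183 CPM in DA immune-enriched and 8157 CPM in LEW immune-enriched members. In the fitted libraries the other Ptprc-counted cells had 1531 to 2703 CPM, below every member value (1.24 ± 0.17, adjusted p = 1.12e-07). Fcer1g, the related adaptor of Fc receptors, ran the other way at 443, 344, 427, 584 and 302 CPM against 1038 to 1672 CPM (-2.04 ± 0.21, adjusted p = 2.20e-11). Downstream, Ptpn6 (SHP-1, a phosphatase of inhibitory receptors) was higher at 289 to 709 CPM against 68.1 to 190 CPM (1.81 ± 0.22), as were Inpp5d (SHIP-1, 1.14 ± 0.28) and the kinase Syk (1.13 ± 0.29). Lyn, Bcap31 and Fcgr2b were not called. Havcr1, which encodes the phosphatidylserine receptor TIM-1, was too sparse for the test, with 24 UMIs in 21 members and 1 UMI in the other cells.

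The secretory machinery of the endoplasmic reticulum (ER) was raised in part. Of 31 tested genes 12 were higher, 0 lower and 19 not called at the threshold, and the list's median was 0.63. Among all genes tested, 7.93% were higher and 13.8% lower. Spcs2, a subunit of the signal peptidase that trims secreted proteins, reached 455, 398, 587, 1059 and 1104 CPM against 140 to 346 CPM, with no overlap (1.65 ± 0.21, adjusted p = 1.19e-08), a call that was lost with cells thinned to 1000 UMIs. Txndc5, a disulfide isomerase, reached 75.9 to 254 CPM against 31.8 to 63.2 CPM (1.75 ± 0.29), and Creld2, an ER stress protein, was higher in 4 of 5 libraries (1.90 ± 0.36). Edem2, which directs misfolded glycoproteins to degradation, was called at 1.37 ± 0.35 and lost the call without the LEW immune-enriched library. The general chaperones did not follow, with Calr at -0.47 ± 0.21 and Canx at 0.01 ± 0.22, neither of them called.

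Most tested lymphoid transcripts were higher. Of 9 tested lymphoid genes known from pDCs, 8 were higher, 0 lower and 1 not called (median 0.98). Over all genes tested 7.93% were higher and 13.8% lower, and 10 annotated genes of this list were filtered out. Ptprcap, the CD45-associated protein of lymphocytes, reached 354, 543, 320, 653 and 715 CPM against 47.6 to 321 CPM (2.00 ± 0.26, adjusted p = 2.06e-07), and Cd7, an early lymphoid surface protein, 316, 633, 400, 696 and 747 CPM against 55.4 to 376 CPM (1.96 ± 0.28, adjusted p = 8.19e-06). Both ranges overlapped with that of the DA immune-enriched comparator cells, although the members were higher within every library. Cd4 was called at 1.03 ± 0.37, a call that was lost when any 1 of the 3 TLH libraries was left out. Against cDC-gated cells 4 of 7 tested genes of this list were higher and 3 not called (median 0.86). Cd7 was among those not called there (1.23 ± 0.43). Dntt, Rag1, Rag2 and Ly6d, genes of lymphoid precursors, had 0 UMIs in members. Ly6d had 0 UMIs in every comparator class as well, so its 0 says nothing particular about the members.

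Chains of lymphocyte receptors were present without their partners. Ighm, the immunoglobulin µ heavy chain, gave 574 UMIs in members and was seen in all 6 libraries. It was counted in 59 of 61 immune-enriched members (96.7%, exact 95% interval 88.7% to 99.6%), against 97.4% of B-gated and 31.3% of cDC-gated cells of the same libraries. At 1000 UMIs per cell these shares were 67.2%, 87.8% and 5.00%, the full median depths being 7379, 2780 and 10398.5 UMIs. In the TLH members Ighm was seen in 40 of 62 cells (64.5%, and 30.6% when thinned), against 25.0% of cDC-gated cells (5.77% when thinned). Yet Cd79b, the signalling chain that every B-cell receptor needs, had 0 UMIs in members against 850 in B-gated cells, of which it is a gate gene, and 680 in the other Ptprc-counted cells. Pax5 and Ebf1 were also at 0, and Ms4a1 (CD20) had 1 UMI. A count of 0 of 61 immune-enriched members allows a share of up to 4.92% with a Cd79b UMI by the floor of 3 counts and 5.87% by the exact 95% interval, for counting error only.

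Cd3g, a chain of the T-cell receptor complex, showed the same arrangement. Members held 89 Cd3g UMIs over all 6 libraries, and 31 of 61 immune-enriched members carried at least 1 (50.8%, interval 37.7% to 63.9%, and 18.0% when thinned). In those libraries the share was 2.50% of cDC-gated cells (0% when thinned) and 3.48% of B-gated cells (3.48% when thinned). In the TLH libraries 25.8% of members carried it (8.06% when thinned), against 0 of 52 cDC-gated cells, which allows a share of up to 5.77% by the floor of 3 counts and 6.85% by the exact interval. Cd3d, Cd3e and Trat1, its partners and companion, had 0 UMIs in members, against 594, 711 and 114 UMIs in the other Ptprc-counted cells. In the other Ptprc-counted cells, which were not freed of T and B cells, the immune-enriched share with Cd3g was 21.0% (13.7% when thinned, median depth 4832 UMIs). Neither Cd3g (0.84 ± 0.41, adjusted p = 0.171) nor Ighm (0.95 ± 0.66, adjusted p = 0.425) was called against these cells, whereas Fcmr, the Fc receptor for IgM, was (2.36 ± 0.53, adjusted p = 0.00578), a call lost without LEW-1 TLH. Without the DA immune-enriched library, or in TLH libraries alone, Cd3g was called higher as well. When members with 2 or more UMIs of Kupffer, T or NK markers were left out, Cd3g turned to -2.26, since Cd3g is itself a T marker used in that choice. Jchain, the joining chain of secreted IgM and IgA, gave 33 UMIs in 24 members and 54 UMIs in the 1770 other cells.

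**Figure D4:**
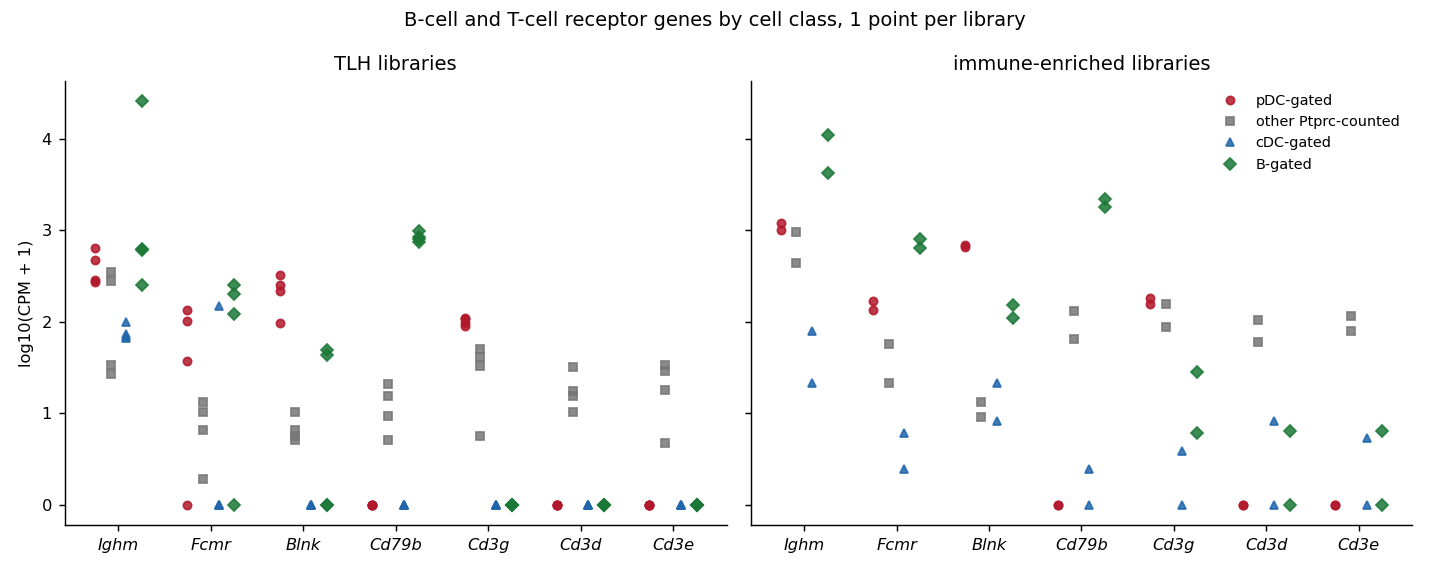
Level of B-cell and T-cell receptor genes as log10(CPM + 1), 1 point per library and cell class, with TLH libraries on the left and immune-enriched ones on the right. Ighm and Cd3g are counted in pDC-gated cells of all 6 libraries, whereas their partners Cd79b, Cd3d and Cd3e stay at 0 UMIs in these cells.

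Receptors for growth and homing were divided. Of 11 tested, 2 were higher, 3 lower and 6 not called (median -0.36), beside 7.93% higher and 13.8% lower over all genes tested. Cxcr3, a receptor for inflammatory chemokines, reached 75.9, 54.3, 26.7, 168 and 95.3 CPM against 4.62 to 29.5 CPM (2.45 ± 0.35, adjusted p = 1.91e-07). Members were higher within every library. Csf1r, the growth factor receptor of macrophages, had 2 UMIs in members against 7386, a ratio of 226 with a counting interval of 62.6 to 1868. Csf2ra, a subunit of the GM-CSF receptor, was lower at 25.3 to 102 CPM against 145 to 290 CPM (-1.62 ± 0.28). The gut-homing receptor Ccr9 and the growth factor receptor Flt3 did not pass the filter on low counts. Ccr9 gave 66 UMIs in members of all 6 libraries and was counted in 34 of 61 immune-enriched members (55.7%, and 19.7% when thinned), against 2.90% of other Ptprc-counted cells with a median of 4832 UMIs (1.11% when thinned). Flt3 gave 22 UMIs in 19 members and 15 in the other cells.

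Antigen presentation gave different counts against each comparator. Against the other Ptprc-counted cells 3 of 11 tested genes were higher, 1 lower and 7 not called (median 0.09). In that comparison 7.93% of all genes tested were higher and 13.8% lower. Cd74, the invariant chain of MHC class II, was at 3743, 3709, 4641, 10000 and 7331 CPM against 1397 to 6278 CPM (1.00 ± 0.22, adjusted p = 0.00207). The ranges overlapped, but members were higher within each of the 5 libraries. RT1-Da, the α chain of rat class II D, was called at 0.71 ± 0.21 and Ifi30, a lysosomal thiol reductase, at 0.59 ± 0.21, and leaving out LEW-1 TLH, LEW-2 TLH or the LEW immune-enriched library ended both calls, as leaving out any of the 5 libraries did for Ifi30. The class II chains RT1-Db1 (-0.07 ± 0.21), RT1-Ba (0.65 ± 0.25) and RT1-Bb (0.09 ± 0.28) were not called. For RT1-Ba members were nevertheless higher in 5 of 5 libraries (adjusted p = 0.0779, edgeR). Whether the chains differ from each other was not tested. B2m, the light chain of MHC class I, was lower at 2316 to 4110 CPM against 4486 to 9708 CPM, without overlap (-1.22 ± 0.17, adjusted p = 1.20e-07).

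Against cDC-gated cells (at least 2 UMIs over Xcr1, Clec9a and Clec10a, none of Siglech; 132 cells, some of them also among the Ptprc-counted), 3 libraries could be used. There 187 of 2027 genes (9.23%) were higher and 265 (13.1%) lower in pDC-gated cells. The 4 tested class II chains and Cd74 were all lower. In DA-2 TLH, DA and LEW immune-enriched members Cd74 was at 3743, 10000 and 7331 CPM, against 10977, 18746 and 12121 CPM in cDC-gated cells (-1.34 ± 0.16, adjusted p = 3.49e-06). RT1-Db1 was at 784, 3282 and 2232 CPM against 4647, 14083 and 10414 CPM (-2.57 ± 0.16, adjusted p = 3.17e-09), and RT1-Da, RT1-Ba and RT1-Bb differed by -1.75, -2.02 and -2.48. With B2m (-1.33), 6 of 10 tested antigen presentation genes were lower and 0 higher (median -1.33).

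Of the identity list 13 genes could be tested in this comparison, with 10 higher and 0 lower (median 1.45), and here too genes absent from the cDC-gated cells passed the filter only through the members. Spib had 143 UMIs in members and 0 in cDC-gated cells and was at least 94.5-fold higher. Fxyd7 was at least 41.6-fold higher, and Gpm6b, Pygm, Smim5 and Runx2 followed with 1 or 2 UMIs each in cDC-gated cells (ratio for Runx2 120, counting interval 32.5 to 1002). Tcf4 was higher by 3.89 ± 0.36 and Irf7 by 1.45 ± 0.35 (103 to 139 against 25.5 to 40.8 CPM, adjusted p = 0.00446), the latter not by DESeq2 or without the DA immune-enriched library. The ER list again had 12 genes higher and 0 lower, of 28 tested (median 0.72), with Txndc5 at 2.33 ± 0.35 and Dnajb9, an ER chaperone of the unfolded protein response, at 2.05 ± 0.33 (not without the DA immune-enriched library). Tyrobp (1.12 ± 0.17), Ptpn6 (1.84 ± 0.28) and Syk (1.28 ± 0.31, not without the LEW immune-enriched library) were higher here too, and Fcer1g was lower (-1.96 ± 0.28). Ighm was at 468, 1201 and 1017 CPM against 65.3, 78.4 and 20.4 CPM (3.74 ± 0.40, adjusted p = 1.59e-05), and Cd3g had 77 UMIs in members against 2 (ratio 76.3, counting interval 20.4 to 642).

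Lower than in cDC-gated cells were Slpi, a secreted protease inhibitor (1 UMI in members, ratio 5448, counting interval 978 to 215202), Anxa3, Csf1r, C1qc, Lgals3 and the immediate-early gene Fos. Tlr3, the endosomal receptor for double-stranded RNA of cDC1s, had 0 UMIs in members and was at least 13.1-fold lower, and Wdfy4, a cross-presentation factor, was lower by 2.93 on the log2 scale. The cDC-gated cells themselves held 4860 to 20925 CPM of Kupffer cell markers in these libraries, and the part of this in the lower genes was not tested. The counts depended on each library, since they were 475 higher and 612 lower without DA-2 TLH, 57 and 101 without the DA immune-enriched library, and 109 and 169 without the LEW immune-enriched one.

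Against B-gated cells (at least 2 UMIs over B cell genes that include Ms4a1 and Cd79b, none of Siglech; 154 cells), 152 of 1270 genes (12%) were higher and 108 (8.5%) lower in 4 libraries. Gapt, Cd7, Hopx, Ap1s2, Pld4 and Tyrobp were the largest by the naming rule. Tyrobp was at 3920, 4866, 8183 and 8157 CPM in DA-2 and LEW-1 TLH and DA and LEW immune-enriched members, against 56.6, 72.8, 122 and 125 CPM (5.82 ± 0.28, adjusted p = 1.59e-12), although this call was lost with at least 3 UMIs in the B gate, where only the immune-enriched libraries could be used. Cd7 had 365 UMIs in members and 1 in B-gated cells (ratio 296, counting interval 52.8 to 11732). Pld4 had 3 UMIs in B-gated cells (ratio 72.2, counting interval 24.5 to 352). Unc93b1 (3.12 ± 0.34) and Tcf4 (3.01 ± 0.34) were higher as well.

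The factors shared with B cells stood closer. Blnk was higher by 2.21 ± 0.31 (215 to 686 against 0 to 152 CPM, adjusted p = 1.60e-05), and Spib was not called (1.01 ± 0.37, adjusted p = 0.0567), at 109 to 437 CPM against 0 to 208 CPM. The identity list had 7 of 10 tested genes higher and 0 lower (median 2.39). The ER list had 14 of 20 tested genes higher and 0 lower (median 1.21), led by Spcs2 at 2.39 ± 0.29 and Sec61b, a translocon subunit, at 1.89 ± 0.28. Ighm was lower than in B-gated cells at 468, 271, 1201 and 1017 CPM against 623, 606, 4197 and 10972 CPM (-2.09 ± 0.51, adjusted p = 0.0251), and Fcmr was lower too (-2.32 ± 0.31). Cd74 (-0.17 ± 0.21) and RT1-Da (-0.21 ± 0.24) were not called, whereas RT1-Bb was at -0.67 ± 0.23, a call lost without DA-2 TLH or either immune-enriched library. In the immune-enriched libraries the B-gated cells had a median of 2780 UMIs against 7379, and 11 of 12 tested hepatocyte markers were lower in members (median -0.87). Of all calls 58.5% were higher with TMM scaling, 42.3% with relative log expression factors and 45.8% with DESeq2, and without the LEW immune-enriched library 87 genes were higher and 10 lower.

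Markers of other cell types were read in the members as a description. Markers of cells common among the other Ptprc-counted cells, such as Kupffer and NK cells, could pass the filter through those cells. Counts of such markers as lower were therefore partly set in advance and do not check the label. All 10 tested Kupffer cell markers were lower than in the other Ptprc-counted cells (median -7.45, or -7.53 with genes of few UMIs at their bounds), and their sum was 187 to 572 CPM in TLH members and 15.9 to 16.5 CPM in immune-enriched members, against 10227 to 31382 CPM. Marco and Clec4f each had 3 UMIs in members of the fitted libraries. All 6 tested NK cell markers were lower (median -10.90, or -5.70 at the bounds), with 0 UMIs of Prf1 and 1 of Ccl5. All 3 tested monocyte and neutrophil markers were lower, among them Lyz2 (-4.58 ± 0.41) and Cd68 (-3.56 ± 0.27). Of 3 T cell markers 1 was lower, Cd8a, and 2 were not called, and of 2 B cell markers Fcmr was higher and Ighm was not called. Of 4 endothelial markers 2 were lower, Calcrl and Sparc. The cDC list had 1 tested gene, Cd1d1, which was not called. Among genes below the filter, Xcr1 and Clec10a had 0 UMIs in members, whereas Clec9a had 10 UMIs in 6 members of 3 libraries and Cadm1 had 20 UMIs in 19 members. Plasma cell and erythroid markers did not pass the filter. By cell, 16 of 123 members held 2 or more Kupffer-marker UMIs, 15 of the 62 TLH members and 1 of the 61 immune-enriched ones. In DA-1 TLH they were 4 of 9 members. NK-marker UMIs were as many in 4 members, T-marker UMIs in 38 and B-marker UMIs in 86. As many monocyte and neutrophil-marker UMIs were held by 21 members, 17 of them immune-enriched, and as many cDC-marker UMIs by 11 members.

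Hepatocyte transcripts made up 6.26% to 8.25% of UMIs in TLH members and 0.0815% to 0.920% in immune-enriched members. Of 13 tested hepatocyte features 7 were lower and 0 higher than in the other Ptprc-counted cells (median -0.56), and the part of this RNA in the TLH values was not tested. Over all genes tested 7.93% were higher and 13.8% lower. Of 3 tested cell cycle genes 2 were lower and 1 was not called (median -1.01). Of 9 tested dissociation response genes 7 were lower and 2 not called (median -1.60). Junb (-2.34 ± 0.36) and Ier2 (-2.16 ± 0.38) were among the lower ones, and neither was called in TLH libraries alone. Mitochondrial transcripts made up a median of 3.16% of UMIs in TLH members and 9.90% in immune-enriched members, and 1 member reached 49.9%.

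The strains were compared first by abundance. Members were 9 of 100 leukocyte-counted cells in DA-1 TLH (9%, exact 95% interval 4.20% to 16.4%), 24 of 342 in DA-2 (7.02%, 4.55% to 10.3%), 16 of 266 in LEW-1 (6.02%, 3.48% to 9.58%) and 13 of 227 in LEW-2 (5.73%, 3.08% to 9.59%). In the immune-enriched libraries they were 43 of 499 for DA (8.62%, 6.31% to 11.4%) and 18 of 459 for LEW (3.92%, 2.34% to 6.13%). Every LEW share was below every DA share in this count, in which the other cells needed a Ptprc UMI and the members did not. With a Ptprc UMI required of members too, an alternative chosen after seeing the data, the shares were 2.15%, 2.45%, 2.72% and 1.83% in DA-1, DA-2, LEW-1 and LEW-2 TLH and 6.75% and 3.08% in the DA and LEW immune-enriched libraries, so that LEW-1 was above both DA TLH libraries, and the difference of LEW minus DA was -0.40 (log2). Of all kept cells, members made up 0.383%, 0.236%, 0.293% and 0.338% in DA-1, DA-2, LEW-1 and LEW-2 TLH and 3.70% and 0.672% in the DA and LEW immune-enriched libraries (difference -0.78, exact permutation p = 0.667), so that both LEW TLH libraries were above DA-2. The log2 difference of LEW minus DA was -0.67, against a spread of 0.24 (SD) between libraries, and the exact two-sided permutation test over the 12 arrangements within preparations gave p = 0.167. That is the smallest p this design allows, so it cannot reach 0.05. With every cell thinned to 1000 UMIs the difference was -0.42, and without either immune-enriched library -0.36. With at least 2 Siglech UMIs and 5 gate UMIs it was 0.06. Under that stricter gate the shares were 2.2%, 3.9%, 4.2% and 5.3% in DA-1, DA-2, LEW-1 and LEW-2 TLH. Both LEW TLH libraries were then above both DA ones, whereas the immune-enriched shares were 8.2% for DA and 3.5% for LEW.

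**Figure D5:**
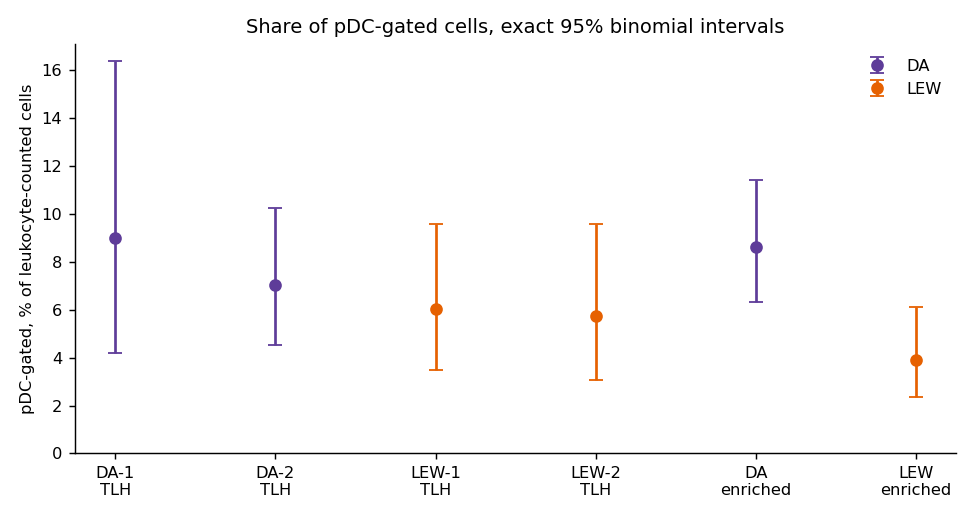
Share of pDC-gated cells among leukocyte-counted cells in percent, 1 point per library with the exact 95% binomial interval, which covers counting error only. The LEW libraries (orange) lie at 3.92% to 6.02% and the DA libraries (purple) at 7.02% to 9%, and the intervals of the TLH libraries overlap.

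Expression within the pDC-gated cells was then compared between LEW and DA in the same 5 libraries, with preparation as a term. edgeR called 0 of 1414 genes higher (0%) and 0 lower (0%) in LEW, DESeq2 called 1 gene, and 56 of 1418 genes, gate genes included, had an unadjusted p under 0.05 in edgeR. AABR07034739.1, named after its values were seen because it came first, was at 191 and 379 CPM in DA-1 and DA-2 TLH members and 867 CPM in DA immune-enriched members, and at 2967, 4347 and 4678 CPM in LEW-1, LEW-2 and LEW immune-enriched members (adjusted p = 0.0598). The strains did not overlap for this gene, but a gene picked because it came first is likely to separate them. The non-overlap therefore supports nothing by itself. The counts depended on single libraries, with 62 genes higher and 14 lower without DA-2 TLH, 30 and 46 without the DA immune-enriched and 25 and 42 without the LEW immune-enriched library.

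pDCs were nearly out of reach in the other assays. Of 12525 kept nuclei, 3 met the same gate (1 in DA-1, 1 in DA-2 and 1 in LEW-2), and 5 Siglech UMIs were counted in all nuclei. On the Wistar sections Siglech gave 4 and 3 UMIs over 2437 and 2404 spots, and Ptcra gave 0 on both. A spot covers several cells, and 0 and 1 of them met the gate. Irf8 and Cyb561a3 were counted in 306 and 241 spots of section 1, where they are shared with other cells.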

How the data were processed

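UMI counts per gene and barcode were analysed for 6 libraries of cells, 4 of nuclei and 2 tissue sections. The authors made the deposited counts with Cell Ranger 3.1.0 (sections with Space Ranger 1.1.0) on a custom Rnor_6.0 reference of 32883 genes, without normalisation. The matrices of cells were matched to gene names by row position through the gene list of a nuclei library, and their barcodes were not used here. No kept cell had the same counts as a cell of another library (0 found). 0 columns belonged to another series.

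Kept TLH cells had 2000 or more UMIs, of which mitochondrial ones made up no more than 40%; for immune-enriched cells the limits were 1000 and 50%, and for nuclei 1000 and 10%, while every deposited spot of the sections was used. Library totals ran from 48255870 to 92484173 UMIs and kept cells from 1163 to 10167, with medians of 2304.5 to 2515 UMIs in TLH and of 4090 and 5581 in immune-enriched libraries. The comparison group was every other kept cell with a Ptprc UMI (1770 cells). Comparator gates needed no Ptprc UMI, and the B gate lacks Cd79a, which is not annotated. No doublet caller was run.

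UMIs were summed per library and class with at least 10 cells and tested with edgeR 4.0.16 (quasi-likelihood, TMM, filterByExpr) in R 4.3.3, with library as a block between classes and preparation as a term between strains. Benjamini-Hochberg adjusted p under 0.05 was called, and errors beside log2 fold changes are SE. DESeq2 1.42.0 was an alternative. Because the classes of a library share cells from 1 liver preparation, library pairs them by construction. The study describes 4 livers for TLH and 1 rat per strain for the enrichment, and p-values measure the spread between these libraries. Shares were compared on the log2 scale by exact permutation (scipy 1.17.1, numpy 2.4.6, pandas 2.3.3, Python 3.11.15). Binomial intervals are Clopper-Pearson at 95%, and intervals and floors (3 counts) cover counting error only. On simulated counts 91% of 200 changed genes were recovered for the comparison with other Ptprc-counted cells. Recovery was 94% for cDC-gated cells, 90% for B-gated cells and 89.5% for strain. How recovery depends on the size of a difference was not tested, so these shares say nothing about small differences, between strains included.

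The members, lists and tests were chosen with earlier results of these data known. Gate genes and Ptprc got no test. Named genes were, per list, up to 4 higher, 2 lower and 3 uncalled, the 12 largest outside lists in either direction that had a gene symbol and changed one way in every library, and the 6 largest for cDC and B comparisons. Genes with near-identical copies, such as the RT1 family, Ighm and Ifit and Mx genes, may share reads. Alternatives covered scaling, DESeq2, the filter, the block, gates, preparations, depth and leaving out each library. Some list members are counted in their lists but not reported here by name.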

Additional observations from a re-analysis of the deposited data

Results flagged for a closer look

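The difference between pDC-gated and other Ptprc-counted cells was tested for a difference between the strains in an interaction model, and 5 of 4651 genes (0.108%) passed at an adjusted p under 0.05 (edgeR quasi-likelihood test with Benjamini-Hochberg adjustment). Differences are given as LEW minus DA of the log2 fold changes, and libraries are in the order DA-2, LEW-1 and LEW-2 TLH, then DA and LEW immune-enriched. Cst3, which encodes the protease inhibitor cystatin C, differed by 2.315 (adjusted p = 0.000649), with 443, 778, 1174, 627 and 1191 CPM in members and 1363, 568, 737, 1773 and 547 CPM in the other cells. Members were below the other cells in both DA libraries and above them in all 3 LEW libraries. Timp2, an inhibitor of metalloproteinases, differed by -3.081 (adjusted p = 0.00234), with 101, 18.1, 107, 323 and 135 CPM in members and 62.5, 348, 388, 147 and 420 CPM in the other cells. RGD1559482 differed by 3.101 (adjusted p = 0.0115), with 25.3 to 127 CPM in members and 149 to 585 CPM in the other cells. Fcgr2b, the inhibitory IgG receptor, differed by -3.342 (adjusted p = 0.0260), with 63.2, 0, 0, 135 and 55.6 CPM in members and 88.6, 50.6, 58.5, 103 and 474 CPM in the other cells. Lyve1, a hyaluronan receptor of sinusoidal endothelium, differed by -3.316 (adjusted p = 0.0390), with 114, 0, 0, 162 and 39.7 CPM in members and 207, 71.9, 49.2, 147 and 418 CPM in the other cells. The makeup of the other cells also differs between libraries, with Kupffer cell markers at 11565 to 31382 CPM in the 5 fitted libraries. Lyve1 and Fcgr2b are both on the list of endothelial markers, whose sum in the other cells was 2071 CPM in the LEW immune-enriched library and 252 to 710 CPM in the other fitted libraries. The part of this makeup in these differences was not tested.

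The tissue sections were outside the comparisons, and Siglech gave 4 UMIs on Wistar section 1 and 3 UMIs on section 2, of similar depth. It is listed because 4 exceeds a fixed level of 3 counts, which is no test of detection.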

How the results depend on the processing

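In pDC-gated against other Ptprc-counted cells (369 genes higher and 643 lower), 164 were higher and 299 lower without library as a block, 208 and 287 in TLH libraries only, 57 and 167 with cells thinned to 1000 UMIs, 185 and 391 without members holding Kupffer, T or NK markers and 624 and 1181 in immune-enriched libraries only, both of these last alternatives being chosen after seeing the data. With no filter 1745 were lower, and with 5 members per library 425. Leaving out each library gave 253 to 365 higher and 435 to 773 lower. Against cDC-gated cells (187 and 265), DESeq2 called 112 higher, no filter gave 348 and 779, no block 69 and 134, and leaving out each library 57 to 475 and 101 to 612. Against B-gated cells (152 and 108), relative log expression factors gave 192 lower, DESeq2 98 higher, no filter 259 and 209, no block 22 and 0, a comparator gate of 3 UMIs 429 and 421, and leaving out each library 84 to 220 and 10 to 187. Between strains (0 and 0), DESeq2 called 1 gene higher in LEW, no filter gave 7 and 13, TLH only 25 and 51, 5 members per library (chosen after seeing the data) 1 and 2, and leaving out each library 0 to 62 and 0 to 46. With the replicate block and preparation the strain counts were 0 and 0; replicate numbers of the TLH libraries are only names, and 1 same-numbered pair entered that fit. The share difference of -0.670 became -0.420 when thinned, -0.404 with a Ptprc UMI required of members (chosen after seeing the data) and 0.0564 with the stricter gate, and ranged from -0.816 to -0.364 over libraries left out. Cd3g reversed to -2.264 without members holding Kupffer, T or NK markers, a choice that uses Cd3g itself. Among 112 named genes against other cells, 1714 of 1840 refitted values kept direction and side of the threshold, as did 1022 of 1174 against cDC-gated and 558 of 708 against B-gated cells. Leaving out all members with any other marker could not be run, since fewer than 10 remained per library. Elsewhere the cause was not tested. Tlr9 and Flt3 had too few UMIs for a test, and the interferon genes had 0.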
